A study of Mus musculus with 8 samples.

Results

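Small nucleolar RNA (snoRNA) host genes are genes that carry snoRNAs inside their introns, and 10 of them were listed here by symbol: Eif4a2, Rcc1, Nop56, Nop58, Gas5, Snhg1, Snhg3, Snhg8, Snhg12 and Ncl. After Ensembl identifiers were mapped to symbols, 5 of the 10 had a row in the 8 expression files, among 17728 identifiers used: Eif4a2, Rcc1, Nop56, Nop58 and Ncl. The members were chosen by their level and the spread between their replicates in these same samples, so level and spread are given as a description, without a test. Differences between groups were tested with limma on the same values. Those p-values are therefore not independent of the choice of genes. The identifiers of Gas5, Snhg1, Snhg3, Snhg8 and Snhg12, all noncoding transcripts in GENCODE M21, matched no row, and these genes are not analysed here. Of the 17262 identifiers found in that annotation, 97.2% were protein coding, and 0 rows carried the symbol of a snoRNA or of an Snhg gene.

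The cells were E14TG2a mouse embryonic stem cells of strain 129/Ola, grown without feeder cells on gelatin in serum medium with LIF and inhibitors of GSK3b (CHIR99021) and MEK (PD0325901). There were 4 groups of 2 biological replicates: unedited cells (WT) and cells in which CRISPR/Cas9 had removed one of 3 enhancers (E1-KO, E2-KO, E3-KO). The study asked how different enhancers bear on the stem cell gene Sox2. All groups shared the medium, and the labels do not say whether a knockout is 1 clone. Total RNA was sequenced, and values are FPKM, fragments scaled to transcript length and to library size. This scaling allows different genes to be set side by side, but for a host any snoRNA fragments counted with it limit such a comparison.

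A snoRNA is cut out of the host's spliced intron and guides chemical modification or cleavage of ribosomal and spliceosomal RNA. Box C/D snoRNAs guide 2′-O-methylation and are bound by fibrillarin, NOP56, NOP58 and SNU13, while box H/ACA snoRNAs guide pseudouridylation and are bound by dyskerin, NHP2, NOP10 and GAR1. The host's exons may code for a protein, often one of translation or of ribosome synthesis, or may be spliced into a noncoding RNA that is degraded. Stem cells divide fast and make ribosomes at a high rate. In a total RNA library with long reads, an intronic snoRNA can add fragments to its host's value if the counting model covers the intron. That share cannot be told apart from spliced host RNA in a single value per gene.

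All 10 named snoRNAs of the 5 measured hosts lie within the spans of the genes that were measured, and 8 are shown, at least 1 per host. Snord57 (Nop56) and Snord70 (Nop58) are not shown. Neither holds TGATGA, and nor does Snord2, which is shown. Positions and sequences are those of GENCODE M21 on GRCm38, while the submitters' processing notes name mm9 as the build of the files, so sequences were read by transcript name and not by coordinate. Capitals mark box C (TGATGA) and box D (CTGA) in box C/D snoRNAs, or the terminal ACA that ends 3 bases before the 3′ end in box H/ACA snoRNAs. Where a box differs from those letters it stays in lower case.
Snord2 (in Eif4a2): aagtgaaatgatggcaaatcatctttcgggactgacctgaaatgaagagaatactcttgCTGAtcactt
Snora81 (in Eif4a2): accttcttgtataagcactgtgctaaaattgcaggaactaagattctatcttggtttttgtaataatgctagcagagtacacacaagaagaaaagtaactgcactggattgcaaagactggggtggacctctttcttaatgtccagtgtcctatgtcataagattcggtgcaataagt
Snora73a (in Rcc1): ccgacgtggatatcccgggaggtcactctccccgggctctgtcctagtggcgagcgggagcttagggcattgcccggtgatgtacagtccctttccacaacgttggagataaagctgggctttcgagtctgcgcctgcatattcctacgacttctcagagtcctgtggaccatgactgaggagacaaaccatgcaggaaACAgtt
Snora73b (in Rcc1): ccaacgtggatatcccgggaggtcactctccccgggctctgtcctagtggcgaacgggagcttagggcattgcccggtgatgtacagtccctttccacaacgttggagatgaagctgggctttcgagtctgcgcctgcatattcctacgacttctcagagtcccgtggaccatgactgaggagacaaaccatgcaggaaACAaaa
Snord110 (in Nop56): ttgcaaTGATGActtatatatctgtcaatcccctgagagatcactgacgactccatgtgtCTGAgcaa
Snord11 (in Nop58): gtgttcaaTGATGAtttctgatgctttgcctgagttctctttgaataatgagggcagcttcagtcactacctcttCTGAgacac
Snord82 (in Ncl): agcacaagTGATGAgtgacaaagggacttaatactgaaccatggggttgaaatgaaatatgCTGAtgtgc
Snora75 (in Ncl): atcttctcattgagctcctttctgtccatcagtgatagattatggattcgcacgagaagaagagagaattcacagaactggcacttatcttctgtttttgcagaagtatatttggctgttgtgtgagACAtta

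Snora73a and Snora73b, copies of the U17 snoRNA that acts in cleavage of the ribosomal RNA precursor, are 205 bases long each and identical at 198 of 205 positions (96.6%). Eif4a2 holds 5 annotated snoRNAs of 69 to 178 bases, Nop56 holds 5 of 68 to 133 bases, Nop58 holds 4 of 81 to 87 bases, and Ncl holds 3 of 70 to 133 bases. All 5 in Eif4a2 also overlap an exon of at least 1 transcript model of that gene, as do 4 of 5 in Nop56, 2 of 3 in Ncl, 1 of 4 in Nop58 and 0 of 2 in Rcc1. Whether such models retain the whole intron was not examined. Over the named mouse snoRNAs inside host genes, TGATGA followed by CTGA was found in 70 of 94 box C/D models (74.5%) and ACA with 3 bases after it in 33 of 38 box H/ACA models (86.8%), on the snoRNA's own strand.

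Before the results, the libraries were checked. Summed FPKM ran from 454974 to 532007, with E2-KO replicate 1 highest, and the step sizes of very low values put the depth of the 8 libraries at 0.786 to 1.011 of that of WT replicate 1. All 7 embryonic stem cell markers were present, with a summed level of 1760 to 2190 FPKM per library, against 3.26 to 5.60 for 7 fibroblast markers, 5.54 to 12 for the 2 of 4 neural markers with a row, 0.549 to 4.45 for 4 of 5 endoderm markers and 3.41 to 7.13 for 4 trophoblast markers. No marker with a row was at 0 in all libraries, and 5 of 7 fibroblast, 3 endoderm and 2 trophoblast markers stayed below 1 FPKM in every library. The mean sums of these lists differed between groups: for WT, E1-KO, E2-KO and E3-KO they were 1790, 2100, 2090 and 1780 FPKM (stem cell), 3.27, 5.47, 3.86 and 4.72 (fibroblast), 5.98, 10.4, 8.53 and 11.7 (neural), 1.32, 0.611, 0.946 and 3.30 (endoderm), and 5.35, 6.34, 3.73 and 4.78 (trophoblast). Their part in the differences between groups below was not tested. Differences from WT were tested with limma on log2(FPKM + 1) over 11269 genes averaging 1 FPKM or more, and a gene was called at a Benjamini-Hochberg adjusted p under 0.05. All 5 measured hosts passed the filter on the mean. The replicates are labelled biological, but with 2 per group the p-values measure the spread between these samples only. In bulk RNA, a change in the number of cells expressing a gene and a change per cell cannot be told apart.

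Eif4a2 (ENSMUSG00000022884, GRCm38 chr16:23107444-23114136, + strand) encodes an RNA helicase paralogue of the translation initiation factor eIF4A. Its level was 5208 and 4934 FPKM in WT, 1289 and 1574 in E1-KO. E2-KO had 5528 and 1592, and E3-KO had 3519 and 2480 (replicates 1 and 2). Both E1-KO samples were low, both E3-KO samples lay between E1-KO and WT, and the E2-KO pair was split, with replicate 1 above WT and replicate 2 near E1-KO. By mean level Eif4a2 ranked at place 7 of all identifiers, so this split concerned one of the highest values of the files. How much of that value is spliced Eif4a2 RNA, and how much may be snoRNA fragments, cannot be told. In E1-KO it fell 3.54-fold in mean FPKM, a log2 change of -1.83 ± 0.467 (SE, n = 2 against 2, limma adjusted p = 0.0147). The change was -0.78 ± 0.467 in E3-KO (limma adjusted p = 0.205) and -0.77 ± 0.467 in E2-KO (limma adjusted p = 0.224), neither of which passed the threshold. The E2-KO value depended on the replicate: it was -1.67 (limma adjusted p = 0.00333) without E2-KO replicate 1 and 0.13 (limma adjusted p = 0.706) without E2-KO replicate 2. Here and in the other values with a replicate left out, the lone sample of a group is assumed to vary like the other groups. The E1-KO call was lost without WT replicate 1 (limma adjusted p = 0.0706), WT replicate 2 (0.0699) or E1-KO replicate 1 (0.0906).

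Rcc1 (ENSMUSG00000028896, GRCm38 chr4:132331919-132353605, - strand) encodes the chromatin-bound exchange factor that loads the GTPase Ran with GTP. The noncoding host Snhg3 spans 132348014 to 132353686 on the same strand, inside and just past the start of Rcc1, and both Snora73 genes lie in introns of both hosts, so the Rcc1 value is uncertain as a measure of Rcc1 messenger RNA. Its level was 1007 and 1273 FPKM in WT, 439 and 355 in E1-KO. E2-KO had 1207 and 449, and E3-KO had 859 and 586. The order of samples was close to that of Eif4a2: E1-KO low, E2-KO split, E3-KO between. Rcc1 fell 2.87-fold in E1-KO, a log2 change of -1.52 ± 0.390 (SE, n = 2 against 2, limma adjusted p = 0.015). Neither E2-KO, at -0.62 ± 0.390 (limma adjusted p = 0.240), nor E3-KO, at -0.67 ± 0.390 (limma adjusted p = 0.189), passed. Without E2-KO replicate 1 the E2-KO value was -1.33 (limma adjusted p = 0.00912), and without E2-KO replicate 2 it was 0.09 (limma adjusted p = 0.801). The E1-KO call was lost without WT replicate 2 (limma adjusted p = 0.0967), E1-KO replicate 1 (0.054) or E1-KO replicate 2 (0.0811).

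The 2 genes kept a narrower ratio to each other than to the other hosts. Eif4a2 divided by Rcc1, both in FPKM, ran from 2.94 in E1-KO replicate 1 to 5.17 in WT replicate 1, while Eif4a2 divided by Nop56 ran from 2.87 in E1-KO replicate 2 to 19.7 in WT replicate 1. These ratios are descriptions of 8 libraries, and each library sets both of its values.

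Nop56 (ENSMUSG00000027405, GRCm38 chr2:130274430-130279313, + strand) encodes a core protein of the box C/D particle and itself hosts box C/D snoRNAs such as Snord110 and Snord57. Its level was 264 and 353 FPKM in WT, 376 and 548 in E1-KO. E2-KO had 1159 and 541, and E3-KO had 450 and 583. WT was lowest and overlapped no knockout, and E2-KO replicate 1 stood above every other sample. Nop56 rose 2.75-fold in E2-KO, a log2 change of 1.37 ± 0.332 (SE, n = 2 against 2, limma adjusted p = 0.0123). Its values in E1-KO, 0.57 ± 0.332 (limma adjusted p = 0.203), and in E3-KO, 0.74 ± 0.332 (limma adjusted p = 0.097), did not pass. Without E2-KO replicate 1 the E2-KO value was 0.82 (limma adjusted p = 0.0531), and without WT replicate 1 it was 1.16 (limma adjusted p = 0.0862).

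Nop58 (ENSMUSG00000026020, GRCm38 chr1:59684971-59719044, + strand) encodes the partner of NOP56 in the box C/D particle. Its level was 68.1 and 65.2 FPKM in WT, 82.5 and 81.9 in E1-KO. E2-KO had 121 and 67.5, and E3-KO had 86.6 and 90.0. It was the lowest of the 5 hosts in every sample. The E1-KO and E3-KO pairs lay above WT with replicates close together, and E2-KO replicate 2 fell between the WT replicates. No comparison with WT passed: E1-KO had a log2 change of 0.30 ± 0.215 (limma adjusted p = 0.300), E2-KO one of 0.43 ± 0.215 (limma adjusted p = 0.144) and E3-KO one of 0.40 ± 0.215 (limma adjusted p = 0.159). The standard error is shared by the 4 groups, and the E2-KO pair supplied most of it: without E2-KO replicate 1 the adjusted p was 0.0195 in E1-KO and 0.0049 in E3-KO, and without E2-KO replicate 2 it was 0.0191 and 0.00488 (limma), each at the same log2 change. Against WT, E2-KO replicate 1 alone gave 0.85 (limma adjusted p = 0.00109, with its spread taken from the other groups).

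Although their proteins act in one particle, the ratio of Nop56 to Nop58, in FPKM, ran from 3.88 in WT replicate 1 to 9.56 in E2-KO replicate 1.

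Ncl (ENSMUSG00000026234, GRCm38 chr1:86344719-86359400, - strand) encodes nucleolin, an abundant nucleolar protein that binds ribosomal RNA precursors. Its level was 490 and 466 FPKM in WT, 954 and 864 in E1-KO. E2-KO had 993 and 633, and E3-KO had 693 and 861. Both WT samples lay below all 6 knockout samples. Ncl rose 1.90-fold in E1-KO, by a log2 change of 0.92 ± 0.204 (limma adjusted p = 0.00797), 1.70-fold in E2-KO, by 0.73 ± 0.204 (limma adjusted p = 0.0224), and 1.63-fold in E3-KO, by 0.69 ± 0.204 (limma adjusted p = 0.0224; SE, n = 2 against 2 throughout). The 3 comparisons share the same WT samples. The calls were sensitive to WT: without WT replicate 1 the limma adjusted p was 0.0871 (E2-KO) and 0.0806 (E3-KO), and without WT replicate 2 it was 0.0599, 0.119 and 0.115 for E1-KO, E2-KO and E3-KO. The call was also lost without E1-KO replicate 1 in E1-KO (limma adjusted p = 0.0627), without E2-KO replicate 1 in E2-KO (0.0904, at a log2 change of 0.41) and without E3-KO replicate 2 in E3-KO (0.117).

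**Figure D1:**
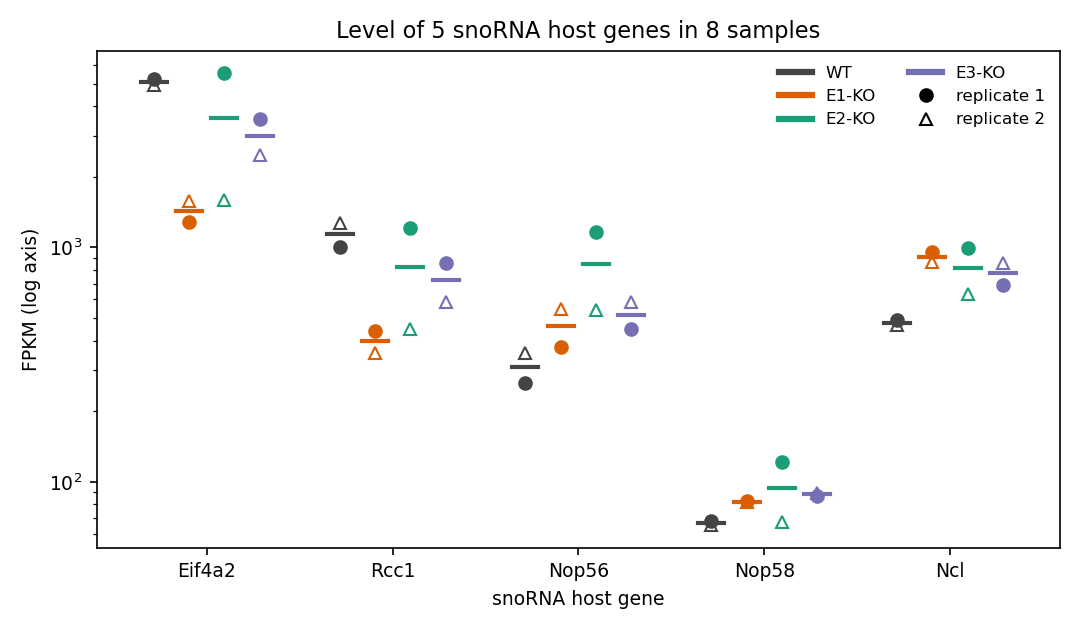
Level of the 5 measured snoRNA host genes in 8 samples, in FPKM on a log axis. Points are samples (filled circles for replicate 1, open triangles for replicate 2) and bars are group means. E2-KO replicate 1 is above E2-KO replicate 2 for every gene, as for Eif4a2 with 5528 against 1592 FPKM.

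Across genes, the order of the FPKM values, which may include snoRNA fragments, changed with the group. In WT the mean FPKM was 5071 ± 193 for Eif4a2, 1140 ± 188 for Rcc1, 478 ± 16.5 for Ncl, 309 ± 63.1 for Nop56 and 66.7 ± 2.05 for Nop58 (SD, n = 2), and no neighbours in that order overlapped. In E1-KO the order was Eif4a2 (1432 ± 202), Ncl (909 ± 63.6), Nop56 (462 ± 121), Rcc1 (397 ± 59.6) and Nop58 (82.2 ± 0.437; SD, n = 2), where the samples of Nop56 and Rcc1 overlapped. In E2-KO the samples of Rcc1 (449 to 1207), Nop56 (541 to 1159) and Ncl (633 to 993) overlapped one another. E3-KO had Rcc1 (586 to 859) and Ncl (693 to 861) overlapping, with Nop56 (450 to 583) below both. Over the 8 samples the coefficient of variation was 54.2% for Eif4a2, 51.5% for Nop56, 47.1% for Rcc1, 27.4% for Ncl and 21.8% for Nop58.

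The replicate spread of the 5 hosts came mainly from one pair. E2-KO replicate 1 exceeded E2-KO replicate 2 for all 5, by 1.80 (Eif4a2), 1.42 (Rcc1), 1.10 (Nop56), 0.83 (Nop58) and 0.65 (Ncl) on the log2 scale. Over every gene fitted the median of that difference was 0.02, and the 95th percentile of its size was 0.582. In WT the same difference was -0.34 for Rcc1 and -0.42 for Nop56, and within ±0.08 for Eif4a2, Nop58 and Ncl. E1-KO gave -0.29 for Eif4a2, 0.31 for Rcc1, -0.54 for Nop56, 0.01 for Nop58 and 0.14 for Ncl. In E3-KO, Eif4a2 and Rcc1 were again higher in replicate 1, with 3519 against 2480 and 859 against 586 FPKM, while Nop56, Nop58 and Ncl were higher in replicate 2. The SD between replicates pooled over the 4 groups was 0.668 for Eif4a2, 0.563 for Rcc1, 0.475 for Nop56, 0.297 for Nop58 and 0.261 for Ncl. Of the 11269 tested genes, 30 had a larger SD than Eif4a2, 47 than Rcc1, 93 than Nop56, 748 than Nop58 and 1220 than Ncl, and the median over all tested genes was 0.137. From the WT, E1-KO and E3-KO pairs alone, an alternative added after the data were seen, the pooled SD was 0.239 for Eif4a2, 0.292 for Rcc1, 0.318 for Nop56, 0.034 for Nop58 and 0.143 for Ncl. The depth of the E2-KO libraries relative to WT replicate 1 was 0.995 for replicate 1 and 0.909 for replicate 2, and the part of depth, library preparation or snoRNA fragments in the split was not tested.

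**Figure D2:**
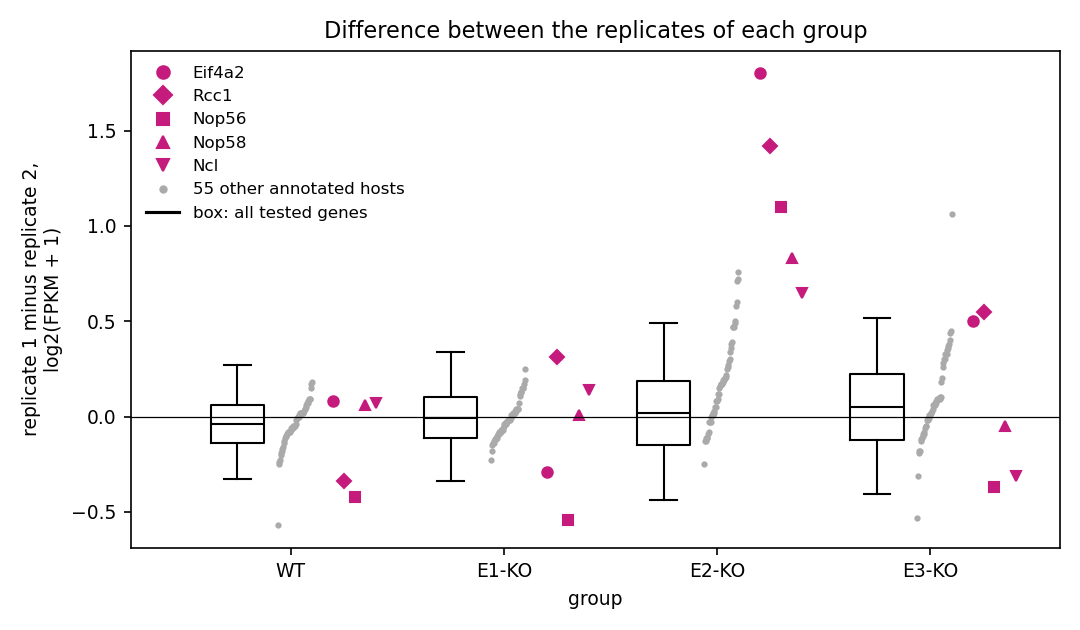
Replicate 1 minus replicate 2 in each group, in log2(FPKM + 1). Boxes show the quartiles and 5th to 95th percentiles of all tested genes, grey points are 55 other annotated host genes, and coloured symbols are the 5 listed hosts, which reach 0.65 to 1.80 in E2-KO.

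Other hosts showed the same sign of the E2-KO difference at a smaller size. GENCODE M21 places a named snoRNA in an intron of 96 genes, of which 61 had a row and 60 were tested, 5 of them the hosts above. Among the other 55, E2-KO replicate 1 was above replicate 2 for 44 (80.0%), with a median difference of 0.17. The same was true of 52.4% of all tested genes and of 66.6% of the 1757 tested genes averaging 50 FPKM or more, where the median was 0.09. It was also true of 16 of 18 ribosome synthesis genes (88.9%, median 0.16), most of which are not annotated hosts. The same held for 15 of 18 proteins of snoRNA particles and their assembly (83.3%, median 0.19). Most of these are not annotated hosts either, but the 15 include Nop56 and Nop58 from the hosts above, so that count is not separate from them. Split by snoRNA symbol, the count was 16 of 19 for hosts of a Snora (box H/ACA) and 28 of 36 for hosts with only Snord or Scarna symbols. snoRNAs with other symbols were not sorted, so some of the 36 may also hold a box H/ACA RNA. The 55 other hosts were not more spread than genes in general: their median pooled SD was 0.115 and 25 of 55 exceeded the median of all tested genes, against a median of 0.115 for genes of at least 50 FPKM. The 5 listed hosts, chosen in part for their spread, all lay above the median of all tested genes.

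Named after their values were seen, the other hosts with the widest replicate spread were Rpl23 (SD 0.452), Eef1b2 (0.268), Rps3 (0.259), Rpl39 (0.251) and Tpt1 (0.232), which carry Snora21, Snora41, Snord15a and Snord15b, Snora69 and Snora31. Rpl23, a protein of the large ribosomal subunit, had 1908 and 1164 FPKM in E2-KO, with 1524 and 732 in E3-KO, so its replicates parted in both groups. Eef1b2, a subunit of the elongation factor exchange complex, had 476 and 281 FPKM in E2-KO, with 367 and 365 in E3-KO. Ipo7, a nuclear import receptor that carries Snora23 of 184 bases, had a spread of only 0.033, with 121 and 115 FPKM in E2-KO. These hosts are examples, and the part of snoRNA length in the spread was not tested.

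**Figure D3:**
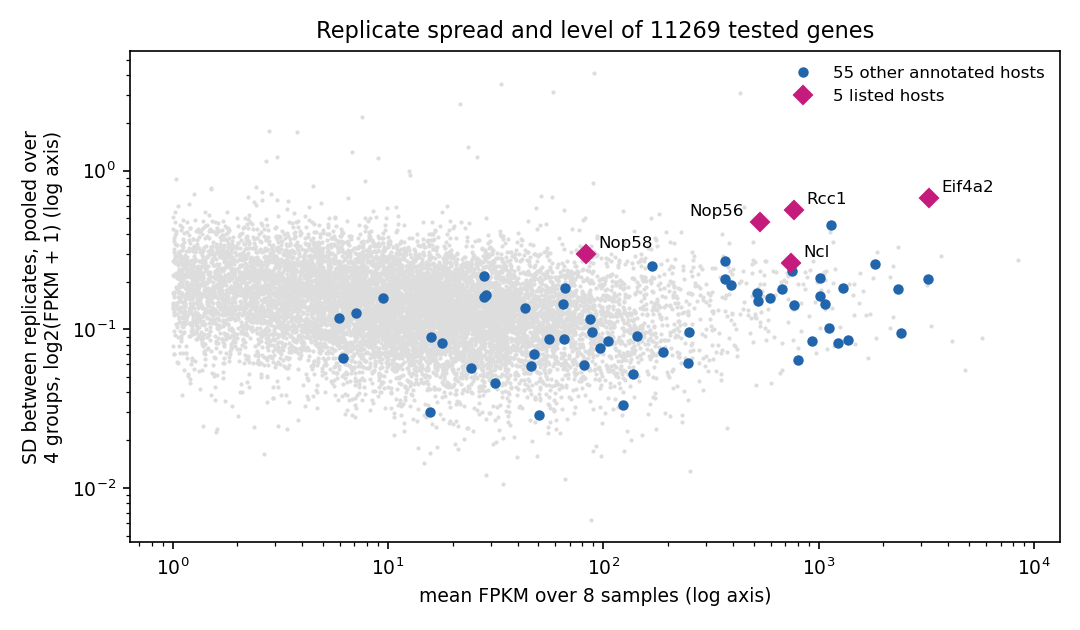
Pooled replicate SD of log2(FPKM + 1) against mean FPKM for each tested gene, both on log axes. The 5 listed hosts (diamonds) have SDs of 0.261 to 0.668, while the 55 other annotated hosts (circles) have a median of 0.115.

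Set against all genes, the number of calls among the hosts was not large. In E1-KO 3 of 5 passed (Ncl higher, Eif4a2 and Rcc1 lower), where 38.0% of all tested genes passed, 15.0% higher and 23.0% lower. In E2-KO 2 of 5 passed, both higher (Nop56 and Ncl), where 36.1% of all genes passed, 14.2% higher and 22.0% lower. In E3-KO 1 of 5 passed, higher (Ncl), where 44.7% of all genes passed, 13.9% higher and 30.8% lower. Samples did not overlap WT for 5 of 5 hosts in E1-KO (77.0% of all tested genes), for 2 of 5 with E2-KO (71.8%) and for 5 of 5 with E3-KO (74.2%). Over everything tested, E1-KO had a median log2 change of -0.06, E2-KO one of -0.08 and E3-KO one of -0.15. With median-ratio scaling it was -0.02 in E3-KO, and the share of higher genes among those called went from 39.2% to 49.8% for E2-KO against WT and from 31.1% to 46.7% for E3-KO against WT. When every gene above 0 was fitted, the calls of Eif4a2 and Rcc1 in E1-KO were lost (limma adjusted p = 0.0583 and 0.0531), as were those of Ncl in E2-KO (0.0653) and E3-KO (0.0633). Quantile normalization ended the call of Ncl in E2-KO (0.0803). No host changed the sign of its difference from WT under any of the 3 other scalings tried. With every E2-KO replicate kept the calls numbered 3, 2 and 1, and the median log2 change of the 5 hosts in E2-KO was 0.43. That median was 0.02 without E2-KO replicate 1 and 0.85 without E2-KO replicate 2. Without E2-KO replicate 1, Eif4a2 and Rcc1 lay further below WT in E2-KO, and Nop56 and Ncl less far above it.

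**Figure D4:**
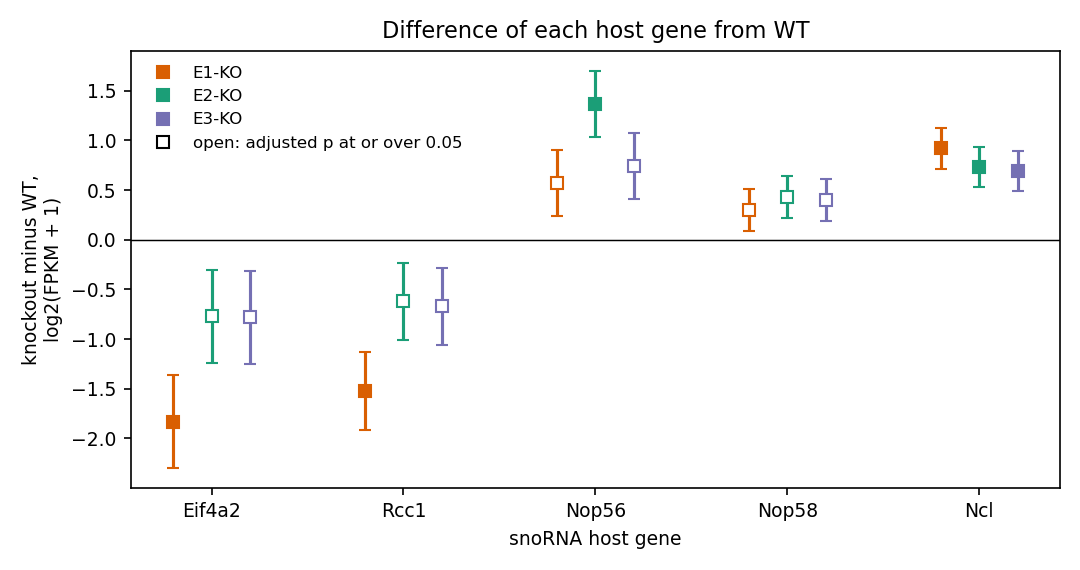
Log2 difference of each host from WT in 3 knockouts, with bars of 1 standard error from limma (n = 2 against 2). Filled squares passed an adjusted p of 0.05, among them Eif4a2 at -1.83 and Rcc1 at -1.52 in E1-KO, and open squares did not.

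Between knockouts no host was called by limma. Of the 5, 0 passed in E2-KO against E1-KO, where 0.834% of all genes passed. Setting E3-KO against E1-KO gave 0 of 5 (25.8% of all genes), and E3-KO against E2-KO likewise 0 of 5 (15.6%). At an unadjusted limma p under 0.05 the counts were 3, 0 and 0. The share of all tested genes at that unadjusted threshold was not counted, so these counts have no background to be read against. Eif4a2 was 2.49-fold higher in mean FPKM in E2-KO than in E1-KO, a log2 difference of 1.06 ± 0.467 (limma adjusted p = 0.269), and 2.10-fold higher in E3-KO than in E1-KO, a difference of 1.05 ± 0.467 (limma adjusted p = 0.128). Rcc1 had log2 differences of 0.90 ± 0.390 (limma adjusted p = 0.261) and 0.84 ± 0.390 (limma adjusted p = 0.141) in the same comparisons. Both E3-KO samples lay above both E1-KO samples for these 2 genes, as did both E2-KO samples. E2-KO replicate 2 was only just above, however. For Eif4a2 it had 1592 FPKM against 1574 in E1-KO replicate 2, and for Rcc1 449 against 439 in E1-KO replicate 1. The differences between E2-KO and E1-KO in these 2 genes therefore came mainly from E2-KO replicate 1. Samples of E3-KO and E1-KO did not overlap for 4 of the 5 hosts. The share of all tested genes without overlap was not counted between knockouts. Against WT that share was 71.8% to 77.0%, so 4 of 5 is not read as a trait of the hosts. When E2-KO replicate 1 was left out, E3-KO and E1-KO differed past the threshold for Eif4a2 (limma adjusted p = 0.00547) and Rcc1 (0.0175), and without E2-KO replicate 2 the values were 0.00613 and 0.0184. Without E2-KO replicate 2, E2-KO replicate 1 alone lay above E1-KO by 1.96 for Eif4a2 and 1.61 for Rcc1 on the log2 scale.

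Proteins that build and escort snoRNA particles were followed as a list of 18, all tested, which holds Nop56 and Nop58. E1-KO had 7 that rose and 0 that fell (median log2 change 0.33), E2-KO had 8 and 0 (0.41), and E3-KO had 3 and 1 (0.09). Over all tested genes, 15.0%, 14.2% and 13.9% were called higher and 23.0%, 22.0% and 30.8% lower in these comparisons. Of the 1757 genes averaging 50 FPKM or more, 515, 508 and 397 were called higher and 306, 240 and 411 lower, with medians of 0.12, 0.13 and 0.00. Znhit3, an assembly factor of box C/D particles, rose in all 3 knockouts, from 12.8 and 10.4 FPKM in WT to 20.4 and 17.6 in E1-KO, to 24.9 and 18.5 with E2 removed, and to 16.9 and 20.2 with E3 removed (0.67, 0.84 and 0.64 on the log2 scale, limma adjusted p = 0.0137, 0.00552 and 0.0142). Dkc1, the pseudouridine synthase dyskerin, had 189 and 198 FPKM in WT and rose in E1-KO to 330 and 288 (0.67, limma adjusted p = 0.00714) and in E2-KO to 260 and 288 (0.50, limma adjusted p = 0.0253). Its E3-KO value was 0.31 (limma adjusted p = 0.106). Shq1, the chaperone that hands dyskerin to the H/ACA particle, was near WT with E1 or E2 removed, at 15.3 to 17.8 FPKM, and fell by 0.70 in E3-KO, from 16.2 and 15.6 to 9.67 and 9.15 FPKM (limma adjusted p = 0.00146). The counts of rising genes moved from 7 to 0 in E1-KO without its replicate 1, from 8 to 2 in E2-KO without either WT replicate and to 4 without its replicate 1, and in E3-KO from 3 to 6 without either E2-KO replicate and to 1 without WT replicate 2 or E3-KO replicate 2. The medians stayed above 0 under every scaling and every left-out replicate.

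A list of 18 ribosome synthesis genes, all tested, holds none of the 5 hosts above, but 2 of them, Gnl3 and Wdr43, are annotated hosts themselves. E1-KO had 9 that rose and 0 that fell (median log2 change 0.40), E2-KO had 9 and 0 (0.35), and E3-KO had 4 and 2 (0.14). The shares of all tested genes called were again 15.0%, 14.2% and 13.9% higher and 23.0%, 22.0% and 30.8% lower, and more genes of 50 FPKM or more were called higher (515 and 508) than lower (306 and 240) in E1-KO and E2-KO, but not in E3-KO (397 and 411). Nop16, a factor of the large subunit precursor, had 31.0 and 32.0 FPKM in WT and rose to 61.0 and 57.2 without E1, 63.5 and 58.6 without E2, and 46.5 and 46.3 without E3 (limma adjusted p = 0.000284, 0.000288 and 0.00184). Bop1, which works with Pes1 and Wdr12 on the large subunit, rose by 0.58, 0.83 and 0.45 on the log2 scale (limma adjusted p = 0.00333, 0.000769 and 0.00891). Tcof1, a nucleolar cofactor of ribosomal RNA transcription, rose by 0.56, 0.53 and 0.43 (limma adjusted p = 0.00616, 0.00868 and 0.017). Polr1a, the largest subunit of RNA polymerase I, had 64.5 and 69.2 FPKM in WT, 64.4 to 65.9 across E1-KO and E2-KO, and 41.1 and 41.3 in E3-KO, where it fell by 0.68 (limma adjusted p = 0.00052). The count of rising genes dropped to 3 without E1-KO replicate 1 in E1-KO and to 2 without WT replicate 1 in E2-KO, and in E3-KO it was 7 without either E2-KO replicate and 1 without WT replicate 1.

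A list of 20 further protein-coding hosts had 16 members with a usable row, and Dkc1 stands in this list too. For Dkc1, Taf1d and Ppan, GENCODE M21 placed no named snoRNA in an intron, so they are hosts by the list only. They were the 3 genes called higher in E1-KO. In E2-KO the genes called higher were these and Rps13, and in E3-KO they were Taf1d, Ppan and Rps13. E1-KO had 3 that rose and 4 that fell (median log2 change -0.28), E2-KO had 4 and 3 (-0.04), and E3-KO had 3 and 2 (-0.17). All tested genes had 15.0%, 14.2% and 13.9% called higher, 23.0%, 22.0% and 30.8% called lower, and medians of -0.06, -0.08 and -0.15. Rps3, a protein of the small subunit, was low in E1-KO and had parted replicates in E2-KO: 2543 and 2783 FPKM in WT, 855 and 904 in E1-KO. E2-KO had 2088 and 1272, and E3-KO had 2094 and 2032. Its log2 change was -1.60 for E1-KO (limma adjusted p = 0.000848) and -0.71 for E2-KO (limma adjusted p = 0.0307), while its E3-KO value was -0.37 (limma adjusted p = 0.194). Rpl3, of the large subunit, had 855 and 893 FPKM in WT and fell to between 329 and 495 in the knockouts (log2 changes of -1.25, -0.90 and -1.21, limma adjusted p = 0.000401, 0.00188 and 0.000306). Eef2, the elongation factor that moves the ribosome along, fell from 1176 and 1295 FPKM to between 621 and 686, with replicates close in E2-KO at 665 and 658 (limma adjusted p = 0.000556, 0.000804 and 0.000542). Taf1d, a subunit of the RNA polymerase I selectivity factor, rose from 112 and 110 FPKM to 169 and 168 without E1, 235 and 158 without E2, and 192 and 180 without E3 (limma adjusted p = 0.0191, 0.00624 and 0.00621). The median in E2-KO was 0.04 with median-ratio scaling, so its sign depended on the scaling. In E3-KO 6 genes fell without either E2-KO replicate.

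Over all 55 other annotated hosts, 3 rose and 12 fell with E1-KO (median log2 change -0.18), 4 rose and 11 fell with E2-KO (-0.06), and the same numbers did with E3-KO (-0.14). Beside them stand 15.0%, 14.2% and 13.9% of all tested genes called higher and 23.0%, 22.0% and 30.8% called lower, with medians of -0.06, -0.08 and -0.15. With median-ratio scaling the medians were -0.12, 0.02 and 0.00, so the E2-KO sign depended on the scaling. The counts without WT replicate 1 were 1 and 6, 0 and 3, and 1 and 8. Of a list of 17 further noncoding hosts, 0 had a row.

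Nonsense-mediated decay, the route that degrades many spliced noncoding host RNAs, was followed by 10 genes, all tested. E1-KO had 2 that rose and 3 that fell (median log2 change -0.17), E2-KO had 1 and 3 (-0.20), and E3-KO had 1 and 4 (-0.11, or 0.03 with median-ratio scaling). With 10 genes these counts are near the shares of all tested genes, 15.0%, 14.2% and 13.9% higher and 23.0%, 22.0% and 30.8% lower. Upf1, the helicase of the pathway, fell from 63.4 and 72.4 FPKM to between 37.5 and 47.3 in the knockouts (-0.64, -0.54 and -0.77, limma adjusted p = 0.00222, 0.00526 and 0.000693). Smg1, the kinase that acts on UPF1, had log2 changes of -0.53 for E1-KO and -0.67 for E2-KO, both past the threshold (limma adjusted p = 0.00338 and 0.00131), and its E3-KO value was -0.22 (limma adjusted p = 0.0982). Upf3a rose by 0.71, 0.68 and 0.57 (limma adjusted p = 0.00602, 0.00789 and 0.0127). Its paralogue Upf3b rose in E1-KO by 0.82, from 23.8 and 23.5 to 44.7 and 40.6 FPKM (limma adjusted p = 0.00553), while the other knockouts had values of 0.11 (E2-KO, limma adjusted p = 0.624) and 0.17 (E3-KO, limma adjusted p = 0.434). Without WT replicate 2 the genes that fell numbered 2, 1 and 1.

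Ncl was the only host called in at least 2 knockouts, and the genes with the most similar profile were sought for it among 8390 genes averaging 5 FPKM or more. The smallest root-mean-square difference between centred log2(FPKM + 1) profiles over the 8 samples was that of Gtf3c6, a subunit of the RNA polymerase III factor TFIIIC, at 0.059. Its level was 29.5 and 26.6 FPKM in WT, 50.5 and 50.1 in E1-KO. E2-KO had 56.2 and 38.0, and E3-KO had 39.4 and 48.7. Hypk, a ribosome-associated protein, was next at 0.085, with 65.3 and 71.0 FPKM in WT, 127 and 126 in E1-KO. E2-KO had 136 and 92.0, and E3-KO had 109 and 130. Neither is an annotated host. Both had E2-KO replicate 1 above replicate 2, as Ncl did, but these samples were part of the profile used to pick them. The shared split was therefore given by the choice and is no separate result.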

How the data were processed

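Total RNA libraries of mouse embryonic stem cells (4 groups, 2 replicates each) were deposited as 1 table of FPKM per sample. The FPKM values were made by the authors; the submitters' processing notes name Trimmomatic 0.36, TopHat2 2.0.12, Cufflinks 2.2.1 and mm9, while the gene annotation and library options are not given in the sources used here. How fragments of intronic snoRNAs were counted is not given either, and this could raise host values.

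Of 18774 rows and 17812 identifiers, 660 identifiers were repeated; the row whose 5 neighbours on each side lay around the gene was kept, and 84 identifiers without such a row were left out. Symbols, positions and snoRNAs came from GENCODE M21 (GRCm38). Genes averaging 1 FPKM or more were fitted with limma 3.58.1 (trend, R 4.3.3) on log2(FPKM + 1), all 8 samples in 1 fit with 4 residual degrees of freedom, two-sided, Benjamini-Hochberg adjusted over all 11269 genes. Fold changes on this scale understate the change of low genes. The script was tested on simulated data. Read totals were not used here; relative depth was read from the ratio shared, within 1%, by genes under 0.05 FPKM (41.9% to 50.6% of them). No counts were recovered, so no counting interval is given.

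The 10 host genes, the other lists and the tests were chosen with earlier results of these data known. Named genes were the listed hosts, up to 4 called genes of each other list with the largest change from WT, and for a host called in at least 2 knockouts the 2 genes most like it. Alternatives were other pseudocounts, filters, scalings, treatments of repeated identifiers, pairs fitted alone, a replicate block and each replicate left out. Replicate numbers did not pair the samples: deviations of same-numbered samples correlated at -0.042 to 0.089.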

Additional observations from a re-analysis of the deposited data

How the results depend on the processing

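The genes called among the 5 hosts and among all 11269 depended on which replicates entered. Leaving out 1 replicate, E1-KO had 0 to 4 hosts called against WT, E2-KO had 0 to 3 and E3-KO had 0 to 5. Between knockouts the numbers were 0 to 2 for E2-KO against E1-KO, 0 to 2 for E3-KO against E1-KO, and 0 to 3 for E3-KO against E2-KO. The matching counts over all genes were 2023 to 4678, 1851 to 4454, 2810 to 5351, 2 to 263, 1306 to 3293, and 981 to 1556, against 4284, 4071, 5036, 94, 2911 and 1754 with all samples. With all genes above 0 tested, E1-KO gave 1 host, E2-KO 1 and E3-KO 0 against WT, and 1 gene of all between E2-KO and E1-KO. Fitting the samples of a pair alone gave 5 hosts in E3-KO against WT, 2 hosts for E3-KO against E1-KO, 1 gene of all for E2-KO against E1-KO, and 671 for E3-KO against E2-KO. Quantile normalization left 1 host in E2-KO against WT, where 1880 genes of all were called higher and 2000 lower. A mean of at least 5 FPKM gave 58 genes of all between E2-KO and E1-KO. With the replicate number as a block, hosts called stayed at 3, 2, 1, 0, 0 and 0, and genes of all between E2-KO and E1-KO numbered 31. Where a host count stands here without the count over all genes in the same comparison, it has no background to be read against. The cause of these shifts was not tested. The sign turned for Eif4a2 (0.125) and Rcc1 (0.092) in E2-KO against WT without E2-KO replicate 2, and the values were -1.671 and -1.331 without replicate 1. The median replicate SD of the 5 hosts, 0.475, ran from 0.448 to 0.475 over scalings and summed rows. Leaving out 1 replicate and with it the pair, it ran from 0.239 without either E2-KO replicate to 0.528 without either E3-KO replicate.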
